A study of Mus musculus with 16 samples.

Results

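The peripheral myelin genes Pmp22, Prx, Pmp2 and Egr2 were followed on every array as a measure of the Schwann cells that nerve roots carry into a dissected spinal cord. They are all genes of the array whose name in the scanner files is one of these symbols, other than control spots: 4 of 27962 gene names, with 5 probes of 41174 and 14 spots of 43379. Total RNA of whole lumbar spinal cord was measured in 4 groups of 4 male mice on a B6SJL background. Mice with the mutant human transgene SOD1G93A, a model of amyotrophic lateral sclerosis in which every cell type can make the mutant protein, and their wild-type littermates without the transgene were studied at 40 and at 80 days of age, both before symptoms. Each of the 16 arrays carried cord cRNA labeled with Cy3 and a common reference labeled with Cy5, pooled from heart, kidney and liver of newborn wild-type and transgenic mice. The values below are log2 ratios of Cy3 to Cy5, so that a difference of 1 between arrays is a 2-fold difference. Loess sets the typical spot of each brightness to 0, and the sign of a value does not tell whether cord or reference held more of a transcript. The arrays came on 4 slides, each with 1 array of every group, and each group always took the same place on its slide, so that place and group cannot be told apart.

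In nerve roots and in peripheral nerves, axons are wrapped by Schwann cells, which build peripheral myelin, while inside the spinal cord the oligodendrocytes build central myelin from a partly different set of proteins. Egr2, also called Krox20, is the zinc finger transcription factor that switches Schwann cells to myelination and keeps them there. Pmp22 and Pmp2 belong to the compact part of the sheath: Pmp22 is a membrane protein whose dosage is altered in the commonest inherited demyelinating neuropathies, and Pmp2 is a small fatty acid binding protein on the inner membrane face. Prx, periaxin, lies outside compact myelin, where it links the Schwann cell membrane through Drp2 and dystroglycan to the basal lamina.

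The probes are 60 bases long, and the first 30 bases of those that measure each gene are given, 5′ to 3′ and in lower case since no part is set apart, to identify what was hybridised. The files place them on the mm7 (NCBI35) mouse build.
Pmp22 (A_51_P258529, chr11:63240978-63241007): gccaccaactgtagatgtatatacggtgtc
Prx (A_52_P315837, chr7:24439793-24439822): tgagtagccacgctgagtaccaggtagttg
Pmp2 (A_52_P89767, chr3:10190637-10190666, read toward falling coordinates): tatcaccattagaacggaaagtgcctttaa
Egr2 (A_51_P173043, chr10:67145376-67145405): gtagccaaatttcaggtgagaatgtgcttc
The Egr2 probe is printed 10 times on each array and the others once. Pmp22 has another probe, A_52_P1067763, on chromosome 11 from 63211950 to 63212009, which the files list in the opposite order of coordinates to the first and which was well above background on 0 of 16 arrays. That probe was not tested, and Pmp22 below means A_51_P258529.

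Pmp22 was by far the brightest spot of these genes, with a median Cy3 signal between 1800 and 14446, and was well above background on 16 of 16 arrays. Brightness depends on the probe and is no measure of the order of the genes. Prx was well above background on 15 arrays, all but replicate 4 of the wild-type mice of 40 days, with signals from 47 to 702. Egr2 was well above background on 14 arrays, the same replicate and replicate 3 of the SOD1G93A mice of 40 days being below it, with signals from 43 to 163.6. Pmp2 was well above background on 5 arrays only, 3 of wild-type mice and 1 of SOD1G93A mice at 40 days and 1 of wild-type mice at 80 days. Its Cy3 signals were 39 to 81, and none of the SOD1G93A arrays of 80 days measured it. Close to background the offset pulls a ratio toward that of an empty spot, which makes differences in Pmp2 look smaller.

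In wild-type mice of 40 days, the 4 log2 ratios of Pmp22 were 1.69, 3.19, 2.41 and -0.26 in replicates 1 to 4. In SOD1G93A mice of that age they were 1.10, 0.44, -0.15 and 1.51. The 2 groups overlapped: replicate 4 of the wild-type mice was the lowest of all 16 arrays, while replicates 2 and 3 of the same group were the highest. At 80 days Pmp22 lay at 1.52, 0.72, 0.59 and 1.04 in wild-type mice. The values of SOD1G93A mice at 80 days were 1.69, 0.67, 0.38 and 0.37, and the 2 groups overlapped.

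Prx followed the same arrays. In wild-type mice of 40 days its log2 ratios were 0.47, 1.37, 0.87 and -2.24, and in SOD1G93A mice -0.20, -0.96, -2.26 and 0.33. Replicate 4 of the wild-type and replicate 3 of the SOD1G93A mice were the 2 lowest of the 16 arrays, and replicate 2 of the wild-type mice was the highest. At 80 days the values were 1.29, -0.25, -0.29 and 0.00 in wild-type mice and 1.01, 0.10, 0.03 and -0.72 in SOD1G93A mice, with replicate 1 the highest in both genotypes.

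Egr2 had log2 ratios of 0.25, 1.33, 0.76 and -0.95 in wild-type mice of 40 days, again with replicate 2 highest and replicate 4 lowest. The SOD1G93A mice of 40 days had 0.01, -0.55, -0.79 and -0.06, inside the range of the wild-type mice. At 80 days Egr2 lay at 0.53, -0.23, 0.44 and 0.44 in wild-type mice and at 0.66, -0.02, -0.01 and 0.24 in SOD1G93A mice. The 10 spots of the Egr2 probe differed within an array by an SD of 0.046 to 0.106 (median 0.059), while the 16 array means differed by an SD of 0.59.

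Pmp2 had log2 ratios of 0.78, 0.56, 1.27 and 0.00 in wild-type mice of 40 days. In SOD1G93A mice of 40 days replicate 4 stood at 1.19, above the other 3 at 0.20, 0.17 and 0.03. At 80 days all values were low, with 0.30, 0.03, 0.08 and 0.23 in wild-type mice and 0.09, 0.23, 0.26 and 0.23 in SOD1G93A mice. Part of the spread of Pmp2 lay in the reference channel, where the first wild-type array of 40 days had a median signal of 155 against 49 to 83 on the other 15.

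**Figure D1:**
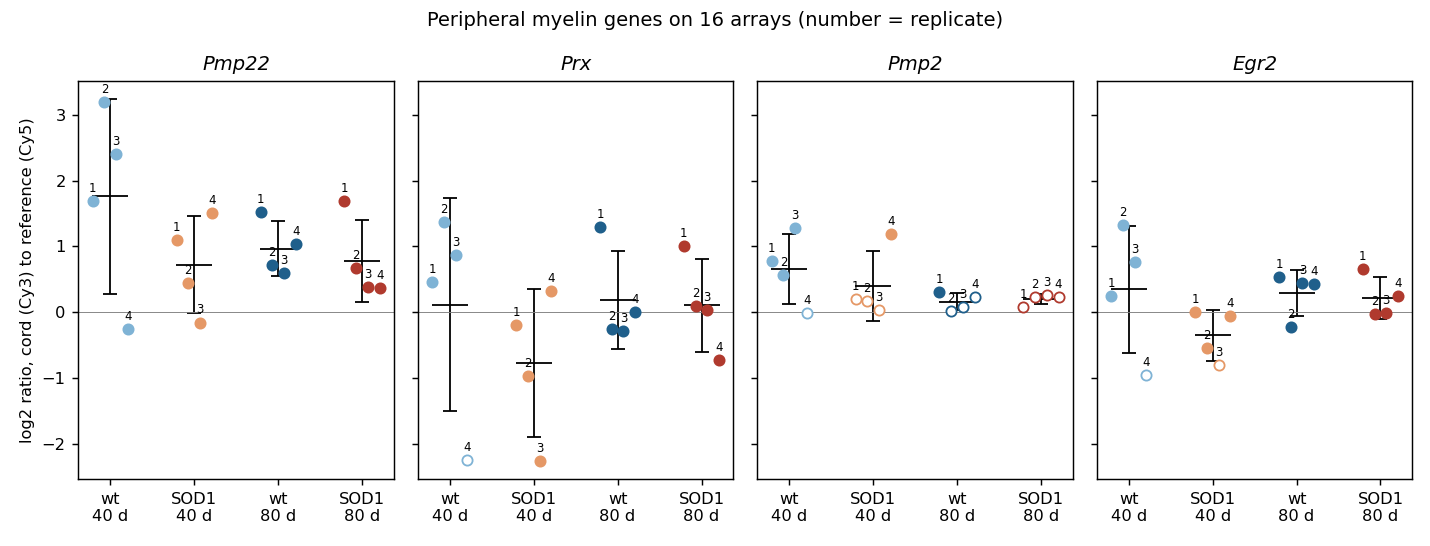
Log2 ratio of cord to reference (vertical axis) of the 4 peripheral myelin genes on each of 16 arrays, by group; small numbers are replicates, open circles are arrays on which the probe was not well above background, and bars are the mean ± SD (n = 4). Pmp22, Prx and Egr2 span the widest range in wild-type mice of 40 days, from replicate 2 at 3.19, 1.37 and 1.33 down to replicate 4 at -0.26, -2.24 and -0.95.

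The spread between arrays of a group was the most marked property of these genes. Among 21951 probes tested on all arrays, the within-group SD of Prx, 1.11 on the log2 scale, ranked 13 from the top. Pmp22 ranked 21 (SD 0.90), Egr2 110 (SD 0.57) and Pmp2 351 (SD 0.38), where the median probe had an SD of 0.11. From the lowest to the highest array the ratio of Pmp22 spanned 10.9-fold. The lowest Prx array had a Cy3 signal of 47 over a background of 37. For Egr2 and Pmp2 the lowest array was not well above background. No fold is given for Prx, Egr2 and Pmp2. The spread was in the cord channel: over 16 arrays the SD of the normalised log2 Cy3 signal was 0.84 for Pmp22 and 1.03 for Prx, and that of Cy5 was 0.088 and 0.15. For Pmp2 the order was turned, with 0.25 in Cy3 and 0.33 in Cy5.

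The spread was wider between arrays of the younger mice. The within-group SD of Pmp22 was 1.17 at 40 days and 0.53 at 80 days, a ratio of 2.20. Egr2 had the same ratio of 2.20 (0.74 against 0.34), Prx one of 1.92 (1.39 against 0.73) and Pmp2 one of 4.98 (0.53 against 0.11), while the median of all tested probes was 0.91. The ratios describe these 16 arrays and were not tested. At 80 days Pmp2 was well above background on 1 of 8 arrays.

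On the same arrays the genes were high or low together. Over 16 arrays Pearson's r of Pmp22 and Prx was 0.86 and Spearman's rho 0.89 (adjusted permutation p = 0.00012 and 6e-05, over 6 pairs of genes). For Pmp22 and Egr2, r was 0.86 and rho 0.76 (adjusted permutation p = 0.00012 and 0.00198). Prx and Egr2 gave an r of 0.88 and a rho of 0.77 (adjusted permutation p = 0.00012 and 0.00198). Without the 2 arrays farthest from the median of the gene named first, r was 0.89, 0.75 and 0.77 for these 3 pairs. Pmp2 followed less closely, with an r of 0.65 to Pmp22 (rho 0.67, adjusted permutation p = 0.0116 and 0.00712), 0.50 to Prx (rho 0.74, p = 0.054 and 0.00262) and 0.40 to Egr2 (rho 0.52, p = 0.128 and 0.0383). Without the 2 farthest arrays these were 0.58, 0.41 and 0.32. Pmp2 was well above background on 5 of 16 arrays, 3 of them wild-type arrays of 40 days. Most of its values lay near background, and its relations support nothing.

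The relation was as close within groups. With each value taken as its deviation from the mean of its group and permuted within groups, r was 0.96 for Pmp22 and Prx, 0.93 for Pmp22 and Egr2 and 0.86 for Prx and Egr2 (adjusted permutation p = 6e-05, 0.00104 and 0.00104). The 3 pairs with Pmp2 had an r of 0.53 to 0.67 and adjusted permutation p of 0.0876 to 0.14. Within the 8 arrays of 40 days alone, r of the first 3 pairs was 0.97, 0.99 and 0.94 (adjusted exact permutation p = 0.000446, 0.000446 and 0.00258, over 12 relations at the 2 ages). Within the 8 arrays of 80 days it was 0.89, 0.69 and 0.54 (adjusted exact permutation p = 0.0228, 0.11 and 0.228). Without the 2 farthest of these 8 arrays it fell to 0.45, 0.24 and -0.21, so the relation at 80 days rested on 2 arrays, replicate 1 of either genotype. Each slide held 4 arrays, too few for a value within a slide.

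**Figure D2:**
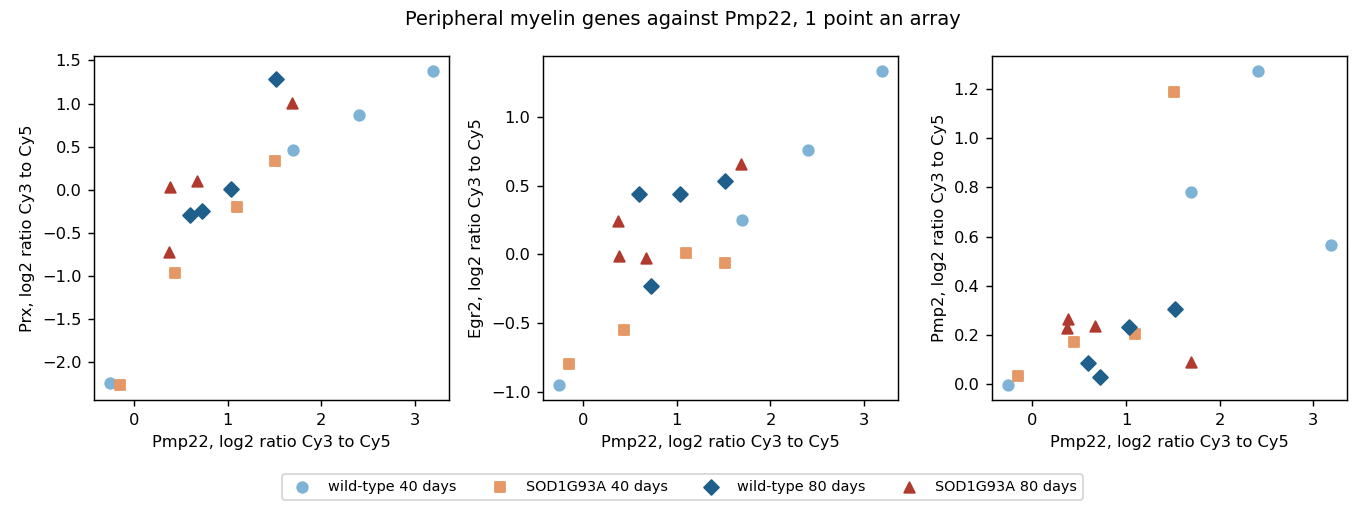
Log2 ratio of cord to reference of Prx, Egr2 and Pmp2 (vertical axes) against that of Pmp22 (horizontal axes), 1 point for each of 16 arrays, with colour and shape for the group. Prx and Egr2 rise with Pmp22 from the arrays with Pmp22 under 0 to the array with Pmp22 at 3.19, with r of 0.86 each, and Pmp2 stands above 0.5 on 4 arrays.

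Ordered by the mean deviation of the 4 genes, replicate 2 of the wild-type mice of 40 days came first (1.25) and replicate 3 of that group next (0.96), and replicate 4 of that group came last (-1.22). The lower end was shared with replicates 3 (-1.16) and 2 (-0.59) of the SOD1G93A mice of 40 days. The arrays of 80 days lay between, from -0.33 to 0.55, with replicate 1 of both genotypes, on slide 1, highest among them. In cord as a whole, fewer Schwann cells and less of these transcripts per Schwann cell cannot be told apart. The part of other cells in these values was not tested. The share of all probes well above background, 46.1% to 55.3% of an array, had an r of 0.33 with this mean over the 16 arrays. Replicate 4 of the wild-type mice of 40 days, last in this order, had the lowest share and the most outlier spots (301). Whether its low values came from the quality of the array was not tested.

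SOD1G93A and wild-type mice were compared at each age to ask whether the transgene had altered gene expression in the cord before symptoms. At 40 days all 4 genes had a lower mean in SOD1G93A mice, and 0 of 4 probes were called at an unadjusted p under 0.05, where 4.51% of 21336 tested probes were. Pmp2 passed the filter on background only through the wild-type mice of this age, where it was highest. Its lower mean, here and below, draws on values that chose it and supports nothing. Pmp22 was 1.76 ± 1.48 (SD, n = 4) in wild-type and 0.72 ± 0.73 in SOD1G93A mice, a change of -1.04 on the log2 scale (95% interval -2.47 to 0.40, limma p = 0.138, adjusted p = 0.997, exact permutation p = 0.257). Only 0.0234% of tested probes had a change larger in size than that of Pmp22, and the change was still within the spread between the arrays of a group. Prx changed by -0.89 (interval -2.60 to 0.82, limma p = 0.274, exact permutation p = 0.371). Egr2 changed by -0.69 (-1.61 to 0.22, limma p = 0.12, exact permutation p = 0.257) and Pmp2 by -0.26 (-0.91 to 0.40, limma p = 0.408, exact permutation p = 0.571). The exact test sets 4 arrays against 4, is two-sided and cannot give a p below 0.0286.

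The comparison at 40 days depended on single arrays. Within slides 1, 2 and 3 Pmp22, Prx and Egr2 were each lower in the SOD1G93A mouse, Pmp22 by -0.59, -2.75 and -2.56. Within slide 4, with the lowest wild-type array, each was higher, Pmp22 by 1.77 and Prx by 2.57. When each array was left out in turn, leaving out this wild-type replicate 4 gave 3 called genes, with changes of -1.71 for Pmp22, -1.68 for Prx and -1.13 for Egr2. Leaving out the highest array, wild-type replicate 2, instead gave -0.56 for Pmp22, -0.47 for Prx and -0.37 for Egr2, with 0 genes called. Prx was -0.39 without replicate 3 of the SOD1G93A mice, and Pmp2 ranged from -0.52 without replicate 4 to -0.13 without replicate 3 of that group. Without normalization within arrays 3 genes were called, and with array weights 2.

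At 80 days the genotypes differed little. Pmp22 was 0.97 ± 0.41 (SD, n = 4) in wild-type and 0.78 ± 0.62 in SOD1G93A mice, a change of -0.19 (95% interval -0.84 to 0.46, limma p = 0.527, exact permutation p = 0.571). Prx changed by -0.085 (-0.97 to 0.80, limma p = 0.834, exact permutation p = 0.886) and Egr2 by -0.080 (-0.50 to 0.34, limma p = 0.682, exact permutation p = 0.8). Of 3 probes tested 0 were called, where 6.86% of 21601 probes were, and the intervals allow changes of Prx by up to 0.97 in size. Pmp2, not above background in enough arrays, was not tested. Without replicate 1 of the SOD1G93A mice, Pmp22 changed by -0.50 and was called.

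The genotype difference was also compared between the ages, over 16 arrays. It was higher at 80 than at 40 days by 0.84 for Pmp22 (95% interval -0.81 to 2.50), 0.80 for Prx (-1.22 to 2.83), 0.62 for Egr2 (-0.43 to 1.67) and 0.30 for Pmp2 (-0.41 to 1.01). The p from limma was 0.232 to 0.413, and that of the exact permutation of genotypes within each age, with 4900 relabellings, was 0.32 to 0.469. Among the members 0 of 4 were called, where 6.72% of 21951 probes were. Without the wild-type replicate 4 of 40 days, 3 were called, with differences of 1.52 for Pmp22, 1.59 for Prx and 1.05 for Egr2. Without replicate 4 of the SOD1G93A mice of 40 days Pmp2 was called (0.56). The Pmp2 difference draws on the wild-type mice of 40 days, through which it passed the filter, and supports nothing.

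Between 40 and 80 days 0 of 4 probes were called in either genotype, where 15.2% of 21951 probes were in wild-type and 16.9% in SOD1G93A mice. In wild-type mice Pmp2 came nearest, with a change of -0.49 from 0.65 ± 0.53 (SD, n = 4) to 0.16 ± 0.13 (95% interval -0.99 to 0.0072, limma p = 0.053, exact permutation p = 0.143). Pmp2 passed the filter on background only through the wild-type mice of 40 days, the group in which it was highest, so its differences from that group, here and under other settings, draw on values that chose it and support nothing. In wild-type mice Pmp22 changed by -0.79 (-1.96 to 0.38, limma p = 0.171, exact permutation p = 0.343). Egr2 changed by -0.051 (-0.79 to 0.69) and Prx by 0.074 (-1.36 to 1.51). Without the wild-type replicate 4 of 40 days, Pmp22 (-1.46) and Pmp2 (-0.71) were called. Pmp2 was also called with array weights (-0.62), with local backgrounds kept as deposited (-0.28) and in the authors' value table (-0.55), whose columns have other medians at each age.

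In SOD1G93A mice the direction from 40 to 80 days was upward for Prx (0.88, 95% interval -0.55 to 2.31, limma p = 0.212, exact permutation p = 0.257) and Egr2 (0.56, -0.18 to 1.31, limma p = 0.127, exact permutation p = 0.0857). In SOD1G93A mice the Egr2 value was higher at 80 days within each of the 4 slides, by 0.30 to 0.78, and over all 8 arrays the 2 ages overlapped. Prx and Pmp22 were each higher within 3 slides and Pmp2 within 2, and slides were not taken as pairs. Egr2 was called without normalization within arrays (0.51). Pmp22 changed by 0.053 (-1.11 to 1.22) and Pmp2 by -0.19 (-0.69 to 0.31). In the authors' value table Pmp2 was called there (-0.40).

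**Figure D3:**
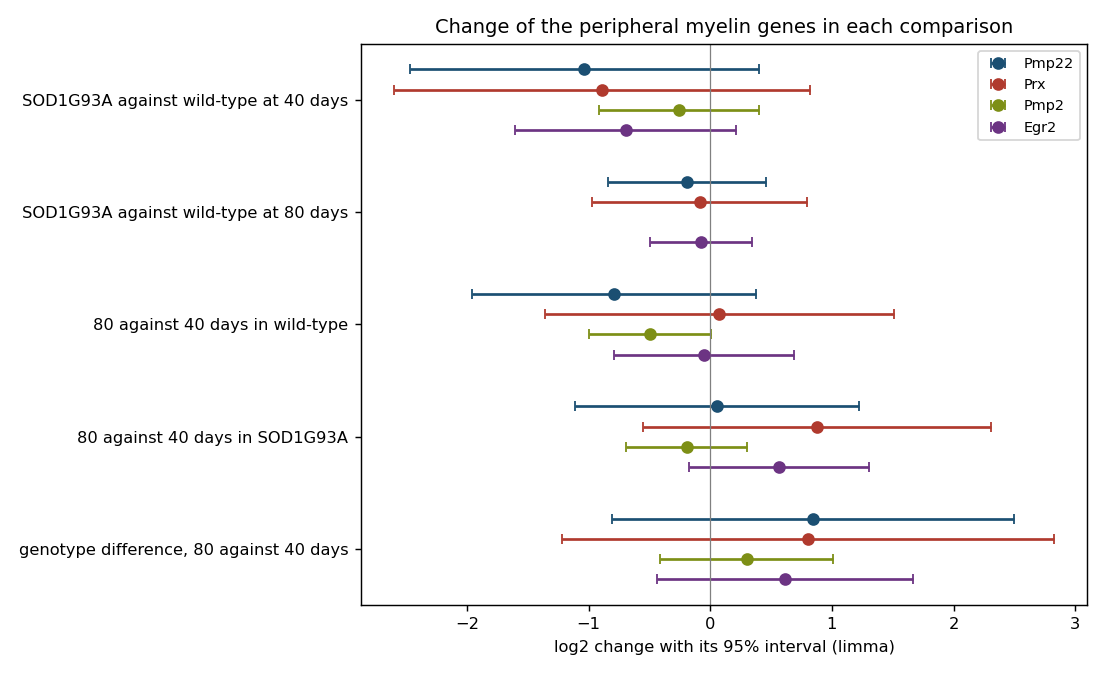
Change of each gene on the log2 scale (horizontal axis; points) with its 95% interval from limma (bars) in 5 comparisons, first group minus second, and for the last the genotype difference at 80 days minus that at 40 days. All intervals include 0, and at 40 days all 4 points are below 0, from -1.04 for Pmp22 to -0.26 for Pmp2. Pmp2 was not tested at 80 days and passed the filter only through the wild-type mice of 40 days.

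The genes whose pattern over 16 arrays was most like that of the 4 members include genes known from peripheral nerve. Among 15559 genes, Dhh, the hedgehog ligand that Schwann cells send to the cells of the nerve sheath, had the highest r with the members' mean (0.98). It was followed by 2310046A06Rik (0.97), Col1a2, a chain of fibrillar collagen (0.96), and Sbspon (0.96). Among the genes most like Pmp22 alone were Akr1b3 (0.96), Ctnnal1 (0.95), Prrg3 (0.95) and Matn2 (0.95). Prx was most like Ogn, a small matrix proteoglycan (0.98), followed by Plekha4 (0.97), Dhh (0.97), Pcolce, an enhancer of collagen processing (0.95), and Cntf, a neurotrophic factor that myelinating Schwann cells store (0.95). Egr2 was most like Ahnak (0.96), Rarres2 (0.92), Dhh (0.91), Sbspon (0.90) and P2ry2 (0.90). Pmp2 had no gene above 0.82: Fxr1 (0.82), Emp2, a relative of Pmp22 (0.81), Rbm12b1 (0.80), Tmem40 (0.78) and Pdia3 (0.78).

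These likenesses describe 16 arrays, in which all genes share the amplification, the slide and the normalization of their array, and the members enter their own mean. Over all 21951 tested probes the median r with the members' mean was -0.00078 and the 5th and 95th percentiles were -0.43 and 0.51. Beside that, an r above 0.8 was found in 104 probes (0.474%). Of 103 of these probes tested at 40 days, 103 had a lower mean in SOD1G93A mice (median change -0.32, against 0.0030 over all tested probes), and 9 were called, all lower. At 80 days the median change of 101 such probes was -0.094, with 2 called, both lower. They were chosen by their likeness on these arrays, so that the sign they share is no independent evidence.

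Genes of these lists are called, here as above, at an unadjusted p under 0.05 from limma. Among other genes of Schwann cells and their myelin, 14 of 15 listed genes were tested and had a median r of 0.71 with the members' mean, and 6 were above 0.8. Among these were Dhh (0.98), Ncmap, a small protein of noncompact myelin (0.92), Lama2, a laminin chain of the basal lamina (0.88), Cldn19, a claudin of Schwann cell tight junctions (0.88), and Gldn, gliomedin, which gathers sodium channels at nodes (0.88). Drp2, the partner of Prx, followed with 0.79. The other 7 tested genes of the list had lower values: Itga6 had an r of 0.63, Dag1, dystroglycan, 0.39, Gpr126 0.16, Mpzl1 0.045, Itgb4 -0.21, Gjb1, a connexin shared with oligodendrocytes, -0.23 and Cadm4 -0.24. Gldn was well above background on 4 of 16 arrays and Cldn19 on 9, so many of their values lay near background. Gldn passed the filter only through mice of 40 days, and its r supports nothing. At 40 days 1 of 14 was called, where 4.51% of all tested probes were: Drp2, lower in SOD1G93A mice (-0.47). The median change was -0.19. Drp2 was also the single gene of 14 with a called difference between the ages (0.56), where 6.72% of all tested probes were called. A count of 1 in 14 is close to both shares. At 80 days 0 of 13 were called, where 6.86% of all tested probes were, with a median change of 0.012. From 40 to 80 days 3 of 14 were called in wild-type mice, where 15.2% of all tested probes were. In SOD1G93A mice 1 of 14 was called, where 16.9% were. Mpzl1 fell in wild-type (-0.61) and SOD1G93A mice (-0.37), and Itga6 (-0.38) and Itgb4 (-0.24), chains of a laminin receptor, fell in wild-type mice.

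Upstream of Egr2, the neuregulin signal reaches Schwann cells through Erbb2 and Erbb3, and Sox10 and Pou3f1 act with it to start Egr2 transcription. Of 14 listed genes of this pathway 13 were tested, with a median r of 0.17 and none above 0.8. Erbb2 had the highest at 0.51, while Erbb3 (0.080) and Sox10 (0.0079), which oligodendrocytes also make, did not move with the members. None was called at 40 days. At 80 days 1 of 13 was, where 6.86% of all tested probes were: Nrg1, higher in SOD1G93A mice (0.25) by the brightest of its 5 probes. The difference between the ages was also called for 1 of 13, Nrg1 (0.23), where 6.72% of all tested probes were. Erbb3 fell from 40 to 80 days in wild-type (-0.54) and SOD1G93A mice (-0.56). It was the 1 of 13 called in wild-type mice, where 15.2% of all tested probes were, and among 3 of 13 in SOD1G93A mice, where 16.9% were. Of the inhibitors of myelination and genes of immature Schwann cells, 8 of 9 were tested, with a median r of 0.072, and Ngfr, the low affinity neurotrophin receptor, had the highest (0.46). At 40 days 1 of 8 was called, Id2, lower in SOD1G93A mice (-0.25), where 4.51% of all tested probes were, and 0 of 8 were called at 80 days. From 40 to 80 days 0 of 8 were called in wild-type mice. In SOD1G93A mice 1 of 8 rose, Ngfr (0.36), and 2 fell, where 16.9% of all tested probes were called.

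Egr2 is also an immediate early gene of neurons, and its relatives were read beside it. Egr1, Egr3 and Egr4 had an r with the members' mean of 0.059, 0.059 and 0.015, and the median of 7 other immediate early genes, Fos and Arc among them, was -0.0051. In SOD1G93A mice 4 of these 7, Junb, Ier2, Nr4a1 and Btg2, rose from 40 to 80 days (0.28 to 0.56), where 16.9% of all probes were called, and 0 of 3 Egr relatives were called. At 40 days 2 of 7, Ier2 (-0.25) and Nr4a1 (-0.42), were lower in SOD1G93A mice, where 4.51% of all tested probes were called. At 80 days 1 of 7, Arc, was higher (0.34), where 6.86% were called. The difference between the ages was called for 1 of 7, Nr4a1 (0.66), where 6.72% were. From 40 to 80 days in SOD1G93A mice the other scalings gave 2 to 4 of the 7 that rose, and 1 was lower in the authors' value table. The other relatives of Pmp22 tested, Emp1, Emp2 and Emp3, had an r of 0.18, 0.69 and 0.31. Of these 3, 1 was called at 40 days, Emp1, lower in SOD1G93A mice (-0.20), where 4.51% of all tested probes were called. Of 12 other genes of demyelinating Charcot-Marie-Tooth disease, the inherited neuropathies of Pmp22, Prx and Egr2, the median r was -0.055.

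Central myelin genes did not follow the same arrays. For 11 genes of oligodendrocyte myelin, among them Mbp, which Schwann cells also make, the median r was -0.036 and the highest 0.086. At 40 days 3 of 11 were higher in SOD1G93A mice, Cldn11 (0.17) and Mbp (0.15) among them, where 4.51% of all tested probes were called. Pmp22, Prx and Egr2 had lower means there, and none of them was called. At 80 days 2 of 11 were higher in SOD1G93A mice, where 6.86% of all tested probes were called. The difference between the ages was called for 1 of 11, Cldn11 (-0.32), where 6.72% were. Without normalization within arrays, and with local backgrounds kept as deposited, 0 of 11 were called at 40 days, and the median change was -0.0085 and 0.087 against 0.13. From 40 to 80 days 7 of 11 fell in wild-type mice, where 15.2% of all tested probes were called. In SOD1G93A mice 7 of 11 fell, where 16.9% were called. The other scalings gave 3 to 10 and 4 to 7 that fell, with 1 higher in wild-type mice with processed signals.

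Genes of fibroblasts of the meninges and the nerve sheath moved with the peripheral myelin genes. All 7 of 8 listed genes that were tested had an r with the members' mean from 0.71 to 0.96 (median 0.91), with Col1a2 at 0.96, Col1a1 at 0.95 and Lum at 0.92. Slc6a13 and Aldh1a2, the least alike, were at 0.71 and 0.73. The summed Cy3 signal of the list was 1068 to 4551 in wild-type and 1122 to 2921 in SOD1G93A mice of 40 days, and 2015 to 6135 and 2138 to 3734 at 80 days. The eighth gene, Foxc2, was well above background on 6 of 16 arrays. At 40 days 0 of 7 were called, where 4.51% of all tested probes were, with a median change of -0.66. The part of these cells in the values of the 4 genes was not tested. Of markers of sensory neurons of the root ganglia, Avil and Pirt were well above background on 0 arrays, Scn10a on 1, P2rx3 on 6 and Prph, which motor neurons also make, on 16, with an r of 0.27. Skeletal muscle genes spread as widely as the members (median within-group SD 0.88 in 5 genes), with a median r of -0.053, and replicate 1 of the wild-type mice of 80 days was high in both, with a mean deviation of 0.80 in muscle genes and 0.55 in the members. Astrocyte genes had a median r of -0.15, 3 blood genes one of 0.31 and 3 motor neuron genes one of 0.48.

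**Figure D4:**
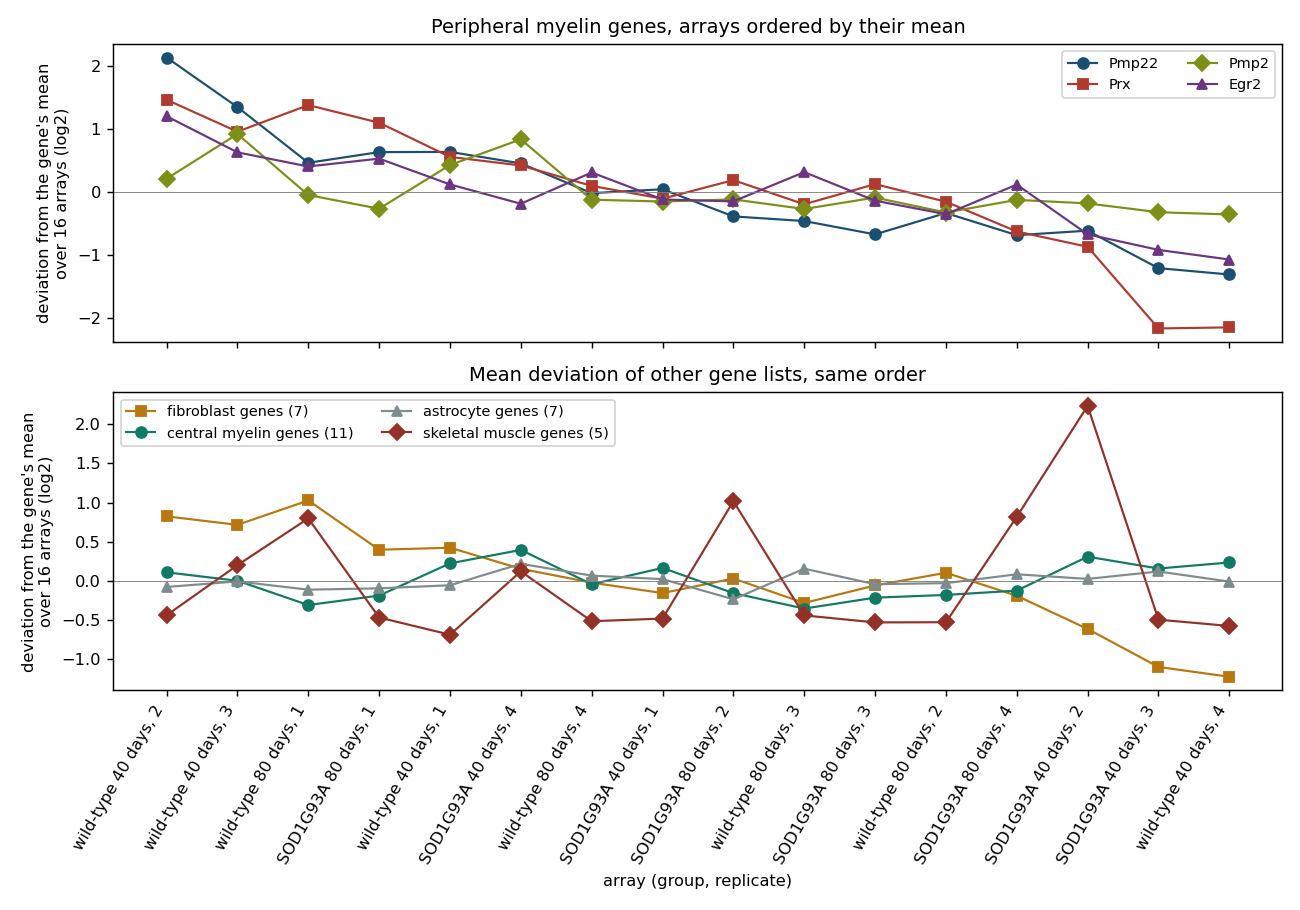
Deviation of each value from the gene's mean over 16 arrays (vertical axes, log2), with the arrays ordered by the mean of the 4 peripheral myelin genes; the upper panel has the 4 genes and the lower the mean of 7 fibroblast, 11 central myelin, 7 astrocyte and 5 skeletal muscle genes. The fibroblast line descends with the peripheral myelin genes to -1.23 on the last array, while the central myelin and astrocyte lines stay between -0.36 and 0.39 and the muscle line peaks at 2.24 on a SOD1G93A array of 40 days.

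**Figure D5:**
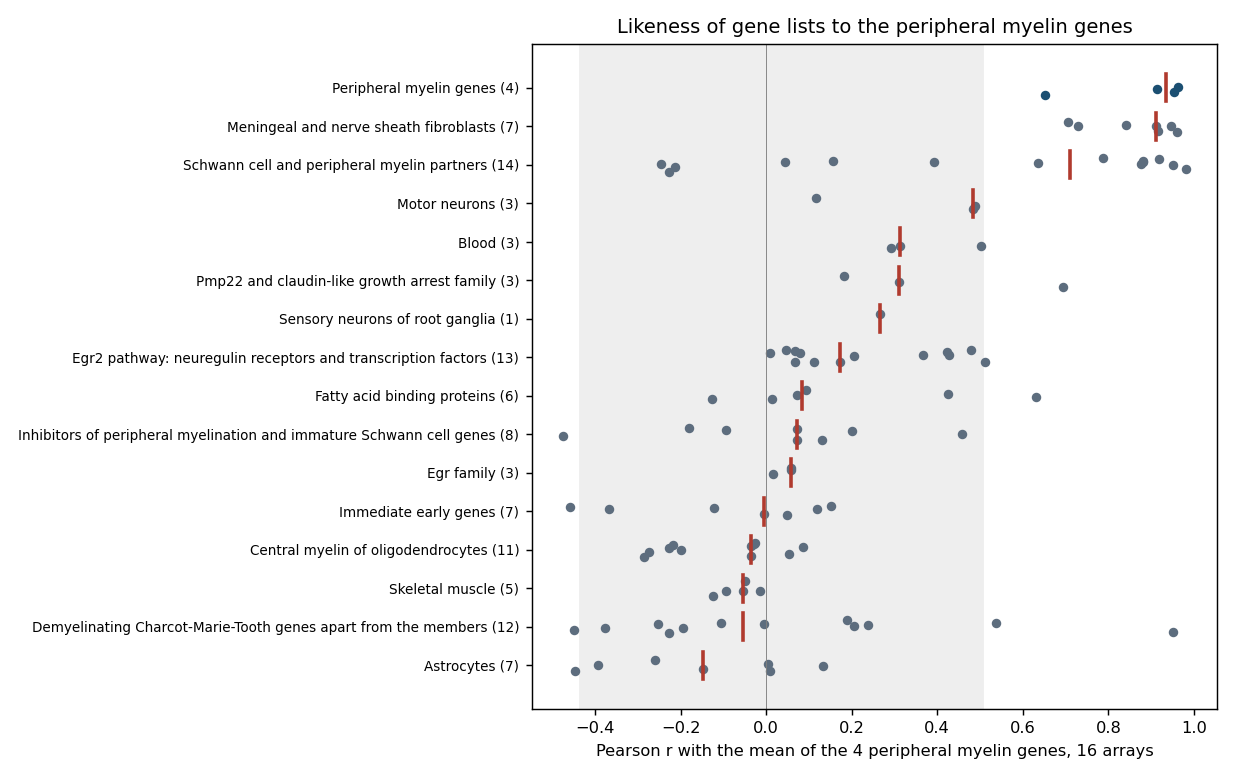
Pearson's r with the mean of the 4 peripheral myelin genes over 16 arrays (horizontal axis) for the tested genes of each list (points, with their number in parentheses) and the list's median (red line); grey runs from the 5th to the 95th percentile of all tested probes, -0.43 to 0.51. Apart from the 4 genes themselves (median 0.93), which enter their own mean, fibroblast genes (median 0.91) and Schwann cell partners (0.71) lie highest. Central myelin, muscle and astrocyte genes lie around or under 0.

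Since the members moved together, their promoters were read for the core of the Egr binding motif, GCGTGGG, in the 250 bases before each RefSeq transcript start of the GRCm38.p6 build, on both strands. It was found in the 1 window of Prx, in 0 of 4 windows of Pmp22 and in 0 of 5 windows of Egr2, while no window of Pmp2 was searched, and in 4.3% of all 32851 windows. The Prx stretch, chr7:27499143-27499189 on the plus strand, is shown with the motif in capitals, which lies on the minus strand and begins 161 bases before the start.
Prx promoter: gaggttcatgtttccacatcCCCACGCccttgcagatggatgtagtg
A Sox motif, ACAAAG, was in none of these 10 windows and in 16.5% of all windows. A match of letters is a description of the sequence and not a binding site.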

How the data were processed

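Spot intensity was deposited as the authors' scanner software wrote it, unnormalized and linear (Agilent Feature Extraction, version 9.5.3.1 per the submitters' processing notes). The authors' value table holds log2 values that follow the Cy3 signal alone (r 0.999 to 1.00 over tested probes); its column medians are about 6.40 at 40 days and 6.09 at 80 days, so its levels are not comparable between the ages, and its direction is that of Cy3. Local backgrounds more than 20 units above a spot's own signal were set to the array's median background. Median signals were corrected with normexp (offset 50), normalized by loess within and Aquantile between arrays in limma 3.58.1 (R 4.3.3, data.table package 1.17.8); the script was tested on simulated data. Control and outlier spots were left out, and spots of a probe averaged. No member spot was saturated (0). A probe was tested if well above background on 3 of 4 arrays of a group and measured on 2 of each group. Genotypes were compared with lmFit and eBayes on the 8 arrays of an age, ages and the difference between ages on 16; calls are at an unadjusted two-sided p under 0.05, after the study's methods, with Benjamini-Hochberg adjustment over all tested probes beside it. At an adjusted p under 0.05, 0 probes passed between genotypes at either age. Correlations used 100000 permutations (SciPy 1.17.1), with 1e-05 the smallest p they can give before adjustment; those on 8 arrays were exact. Figures used matplotlib 3.10.9 in Python 3.11.15. Members, gene lists and tests were chosen with earlier results of these data known. Named genes are all members by each probe, the 5 most alike in r of each member and of their mean, and list genes that are defining or called, apart from some that are not reported here; the brightest probe stood for a gene, and aliases counted once. The number of arrays limits the precision. Nothing in the labels says more of the mice than that they were separate samples, so p-values measure the spread between these samples, which may be technical. Array numbers share a slide: deviations of arrays on 1 slide correlated at -0.14 to 0.23 (median 0.0036, 24 pairs), so the numbers were not taken as pairs. Per the study's methods, 5 mice a group were prepared, of which the arrays used here hold 4.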

Additional observations from a re-analysis of the deposited data

Results flagged for a closer look

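Among 16 sets of 4 arrays (4 genes in 4 groups), 2 had an array apart from the other 3 by more than Dixon's 95% critical value; chance alone does this in about 1 of 20 sets. Egr2 in replicate 2 of the wild-type mice of 80 days was -0.23, below the others at 0.44 to 0.53 (gap over range 0.874). Pmp2 in replicate 4 of the SOD1G93A mice of 40 days was 1.19, above the others at 0.03 to 0.20 (gap over range 0.853), and it was the 1 array of its group on which the probe was well above background.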

How the results depend on the processing

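The count of called genes, 0 in all 5 comparisons, stayed at 0 in 88 of 100 alternatives. At 40 days it was 3 without normalization within arrays and 2 with array weights. From 40 to 80 days it was 1 in wild-type mice with array weights, with local backgrounds kept as deposited and in the authors' value table, and 1 in SOD1G93A mice without normalization within arrays and in that table. Leaving out 1 array at a time gave 0 to 3 at 40 days, 0 to 1 at 80 days, 0 to 2 between the ages in wild-type mice and 0 to 3 for the difference between the ages; the counts of 2 and 3 came without wild-type replicate 4 of 40 days. The replicate block moved no call and left the counts at 0 (Pmp22 at 40 days -1.04, p = 0.183 with the replicate block against 0.138 without, exact permutation p = 0.257). Of 4 gene pairs with an adjusted permutation p under 0.05, Pmp22 with the dim Pmp2 among them, the count under the alternatives was 3 to 6. The median r of the 6 pairs was 0.61 to 0.78. Without normalization within arrays the median change of all probes was -0.12 at 40 days, -0.11 from 40 to 80 days in wild-type mice and 0.20 in the difference between the ages, and in the authors' value table it was -0.13 and -0.14 from 40 to 80 days in wild-type and SOD1G93A mice, so changes there are to be read against those shifts. Of 185 values of single changes under other settings, 14 turned in sign, each of a value not called. Egr2 from 40 to 80 days in wild-type mice was 0.037 with local backgrounds kept and 0.54 with processed signals, and at 80 days between genotypes 0.0069 with array weights and 0.013 without normalization within arrays. Pmp2 from 40 to 80 days in SOD1G93A mice was 0.0030 with local backgrounds kept. Without normalization within arrays Pmp2 was 0.041 between genotypes at 40 days and -0.071 in the difference between the ages. Pmp22 from 40 to 80 days in SOD1G93A mice was -0.064 from Cy3 alone and -0.0031 in the authors' value table. Prx from 40 to 80 days in wild-type mice was -0.37 with array weights, -0.084 without normalization within arrays and -0.10 in that table, and at 80 days between genotypes 0.16 with array weights and 0.033 without normalization within arrays. With 1 array left out, the sign turned in Egr2 between the ages in wild-type mice (-0.48 to 0.28) and between genotypes at 80 days (-0.25 to 0.00012), in Pmp2 (-0.32 to 0.069) and Pmp22 (-0.25 to 0.32) between the ages in SOD1G93A mice, and in Prx between the ages in wild-type mice (-0.71 to 0.49) and between genotypes at 80 days (-0.39 to 0.28). The cause of these moves was not tested. Of 1500 counts of called genes over the other lists, 1154 lay within 1.5 times their value. The signal over background limits Pmp2, which 5 of 16 arrays measured.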

Other observations

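Skeletal muscle genes also differed widely between arrays. The mean deviation of Acta1, Ckm, Mylpf, Tnnt3 and Myh4 was highest in replicate 2 of the SOD1G93A mice of 40 days, at 2.24 on the log2 scale, where that of the 4 peripheral myelin genes was -0.59. Their summed Cy3 signal was 494 to 2721 in that group and 446 to 786 in wild-type mice of that age.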
